A study of Danio rerio with 6 samples.

Results

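Claudins are membrane proteins that span the lateral membrane of epithelial and endothelial cells and bind claudins of the neighbouring cell to form the strands of the tight junction. Some claudins seal the space between cells against water and solutes, and others form pores that let selected ions or water through, so the set of claudins that a tissue makes sets how leaky it is. In a zebrafish larva they are found in skin, gut, pronephros, inner ear, brain and vessel walls. The claudins described here are all entries of the deposited gene table whose symbol starts with cldn and whose mean signal was above 0. Left out were cldnk, a claudin of myelin, and every symbol that starts with cldnd, as those of claudin domain proteins do. A claudin with the symbol cldnd itself would be left out by this too. The entries kept were 29 of the 23956 entries with a mean signal above 0 and carried 27 different symbols. Another 6 claudin entries had a mean of 0, namely both entries of cldn10a, cldn18, cldn23b, the second entry of cldn7b and the third entry of cldn7a. Values of transcripts were summed per gene for 28 of the 29 entries, and 22 passed the filter on low counts and were tested between the genotypes.

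The samples were whole larvae at 5 days post-fertilization (dpf), unchallenged, in 3 tlr2 mutant (tlr2-/-) and 3 tlr2 wild type (tlr2+/+) replicates. The mutant line carries the ENU-induced allele sa19423 of tlr2, which encodes a Toll-like receptor of innate immunity, and had been outcrossed to the ABTL strain. Each replicate held offspring of a single cross, and the 2 genotypes had separate parents, so the mutation and any other allele that sets the parents of one genotype apart from those of the other cannot be told apart. The p-values refer to the spread among these 3 against 3 replicates, and those of edgeR, DESeq2 and limma also draw on the spread of other genes. Fits that left out a library rest on fewer replicates. Both table entries of tlr2 (ENSDARG00000037758 and ENSDARG00000116961) had a mean of 0 over the 6 libraries, and its level therefore gives no check of the genotypes.

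The libraries held 22583146, 24088390 and 17854737 estimated reads in tlr2-/- replicates 1, 2 and 3, and 30584310, 19828367 and 33403126 in tlr2+/+ replicates 1, 2 and 3. Entries with at least 10 reads numbered 15542 to 17133 in the tlr2-/- libraries and 12950, 11909 and 19202 in tlr2+/+ replicates 1, 2 and 3, so the first and second wild type libraries stood apart by the few genes they detected. Claudins with reads numbered 25, 21 and 24 of 28 in the tlr2-/- libraries, and 24, 18 and 28 in the tlr2+/+ libraries. A count of 0 allows up to 3 reads per library for counting error only, which is 0.138 to 0.183 CPM (reads of a gene relative to the TMM-scaled size of its library) in tlr2-/- and 0.0567 to 0.166 CPM in tlr2+/+ libraries.

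A few claudins carried most of the claudin transcripts of the larva. Levels of different genes are given in TPM, a share of all transcripts that takes transcript length into account. The mean over the 6 libraries was 96.4 TPM for cldn1, 67.9 TPM for cldnb, 47.3 TPM for cldn15la, 29.2 TPM for the main cldni entry (ENSDARG00000054616) and 12.3 TPM for cldn7b, and these were the 5 entries above 10 TPM. Together they made up 78.3% of the summed claudin level. The next entries, cldne, a cldn7a entry (ENSDARG00000111721), cldn15lb, cldn5b and cldn11a, averaged 8.49 down to 6.08 TPM. In all, 23 of the 28 entries averaged 1 TPM or more, and the lowest was cldn15b at 0.087 TPM. Reads were found in all 6 libraries for 17 entries, in 5 libraries for 3 and in fewer for 8.

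The order is coarse. For each of the 27 pairs of neighbours in it the ranges over the 6 libraries overlapped, and the higher of the pair was higher in every library in only 2 pairs, cldni over cldn7b and cldn15a over cldn17. cldn1 exceeded cldnb in 3 of 6 libraries. The place of cldn1 also depends on the mean effective length used in TPM, 348 nt for cldn1, 685 nt for cldnb and 1126 nt for the main cldni entry. Over the 6 libraries cldn1 had 6681 reads, fewer than the 10295 of cldnb and the 7223 of the main cldni entry. The same 5 entries led in each genotype, but in another order. In tlr2-/- larvae the means were 151 ± 27.8 TPM for cldn1, 40.2 ± 21.6 TPM for cldn15la, 38.7 ± 12.8 TPM for cldnb, 19.3 ± 2.27 TPM for cldni and 7.56 ± 3.10 TPM for cldn7b (SD, n = 3). In tlr2+/+ larvae they were 97.2 ± 61.8 TPM for cldnb, 54.4 ± 26.3 TPM for cldn15la, 41.8 ± 37.3 TPM for cldn1, 39.1 ± 23.1 TPM for cldni and 17.1 ± 7.55 TPM for cldn7b (SD, n = 3).

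**Figure D1:**
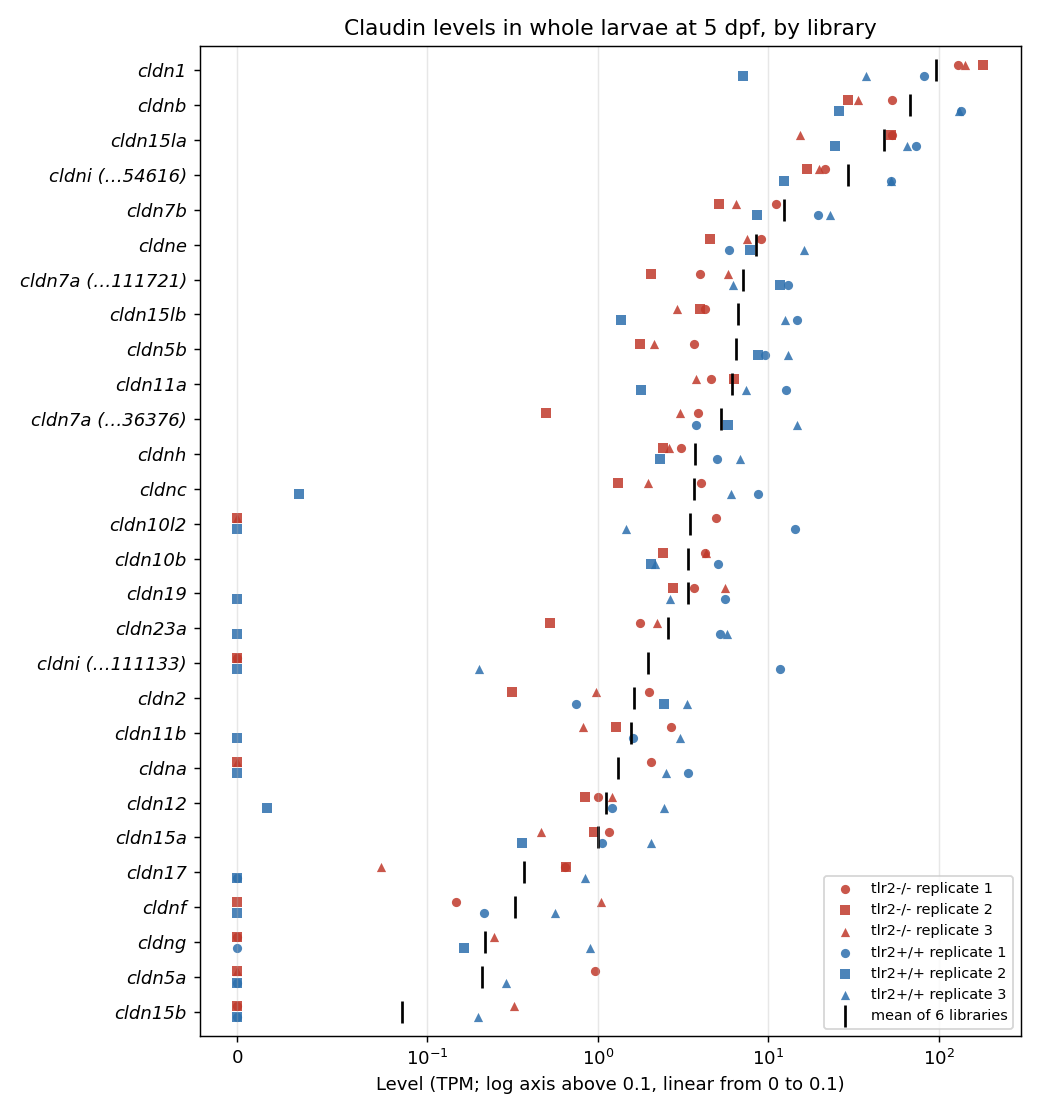
Level of each of the 28 claudin entries in TPM (horizontal axis, logarithmic above 0.1 TPM and linear below it), with 1 point per library, tlr2-/- in red above tlr2+/+ in blue, and a black bar at the mean of the 6 libraries. cldn1 leads at a mean of 96.4 TPM with points from 7.1 to 182 TPM, and neighbouring claudins overlap throughout.

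Between the genotypes no claudin passed the test across all genes. Of the 22 tested entries 0 had an adjusted p under 0.05 with edgeR's quasi-likelihood test, against 1 of 16776 genes (0.00596%). DESeq2's Wald test and limma-trend on TPM also called 0 claudins, while the edgeR fit without tlr2+/+ replicate 1 called 1, cldn1. An edgeR fit with the replicate number as a block called cldn1 too, but over all genes these numbers gave no sign of pairing the samples. At an unadjusted p under 0.05, 1 claudin of 22 (4.55%) was found, cldn1, against 3.73% of all genes tested (1.73% with a positive and 1.99% with a negative log2 fold change). In 2 claudins (9.09%) the CPM of the genotypes did not overlap, cldn1 with all mutant libraries above and cldn5b with all mutant libraries below, against 13.1% of all genes tested (6.87% with the mutant libraries above and 6.20% below). These shares are near the background. The log2 fold change, tlr2-/- over tlr2+/+, was above 0 in 9 claudins and below 0 in 13, while 48.9% of all genes tested were below 0. The claudin median was -0.39, against 0.02 over all genes. The sign of this median rests on 1 library, since it was 0.39 without tlr2+/+ replicate 1. The edgeR adjusted p was 0.9998 for each tested claudin and is not repeated below.

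Libraries of the same genotype differed widely. The median SD within a genotype was 0.91 on the log2 scale for the claudins and 0.87 for all genes tested. tlr2+/+ replicate 2 held the lowest CPM for 13 of the 22 claudins, and 27.6% of all genes were lowest there. Where libraries tied at the lowest CPM, such as 0, only 1 was counted, tlr2+/+ replicate 1 before replicate 2. The 27.6% is therefore a lower bound. For cldna, which is among the 13, tlr2-/- replicates 2 and 3 were at 0 as well. tlr2+/+ replicate 1 held the highest CPM for 11 claudins, while 19.0% of all genes were highest in it. The median deviation of the claudins from their own means was 0.28, -0.10 and -0.18 (log2) in tlr2-/- replicates 1, 2 and 3, and 0.77, -0.92 and 0.43 in tlr2+/+ replicates 1, 2 and 3. Over all genes tested the medians were 0.18, 0.08 and 0.16 in these tlr2-/- libraries. In tlr2+/+ replicates 1, 2 and 3 they were -0.16, -0.28 and 0.39. Among claudins and all genes alike, the wild type libraries thus lay on both sides of the mutant ones.

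**Figure D2:**
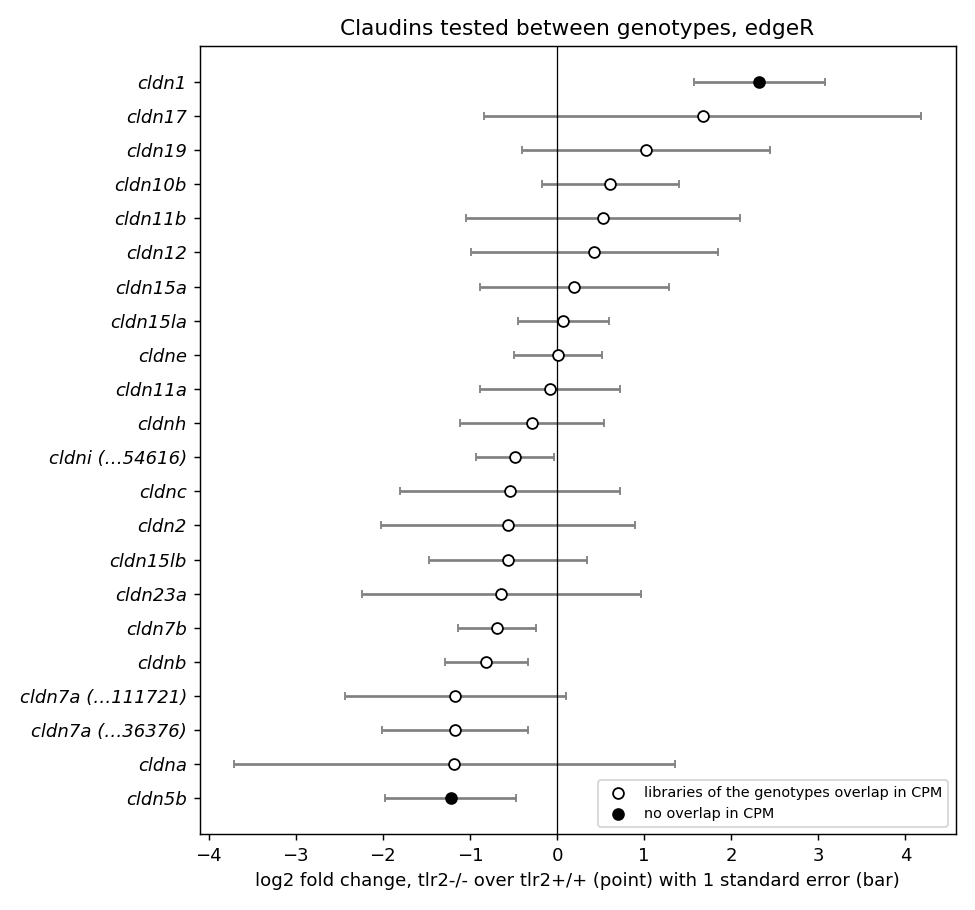
Log2 fold change of the 22 tested claudins, tlr2-/- over tlr2+/+ (horizontal axis), with a bar of 1 standard error of the edgeR fit on each side. Filled points mark cldn1 (2.32) and cldn5b (-1.22), the claudins whose libraries did not overlap between genotypes in CPM, and none of the 22 passed at an adjusted p under 0.05.

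cldn1 (ENSDARG00000040045) showed the largest difference among the tested claudins. Its mouse counterpart is needed for the water barrier of the epidermis. Reads of cldn1 numbered 1371, 2300 and 1278 in tlr2-/- replicates 1, 2 and 3, and 1174, 71 and 487 in tlr2+/+ replicates 1, 2 and 3. Scaled for library size, these were 63.0, 121 and 77.9 CPM in tlr2-/- libraries, against 39.1, 3.93 and 9.20 CPM in tlr2+/+ libraries. Every mutant library lay above every wild type library, and relative to their mean the wild type libraries differed more among themselves than the mutant ones did. The means were 87.4 ± 30.2 CPM in tlr2-/- and 17.4 ± 19.0 CPM in tlr2+/+ (SD, n = 3 each), a fitted 5.01-fold difference (log2 fold change 2.32, SE 0.751, edgeR unadjusted p = 0.0125). The exact two-sided permutation test gave p = 0.1, the smallest that 3 against 3 libraries allow.

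The call for cldn1 was not the same in all fits. Without tlr2+/+ replicate 1, the wild type library with the most cldn1, the log2 fold change was 3.85 with an edgeR adjusted p of 0.03875. Set against only tlr2+/+ replicate 3, which leaves no wild type spread and was chosen once the values were known, it was 3.42. The other 4 fits that left out a library gave 1.85 to 2.51, and without tlr2+/+ replicate 3 it was 2.03, none with an adjusted p under 0.05. With the replicate number as a block it was 2.92 (edgeR adjusted p = 9.27e-06), although these numbers gave no sign of pairing the samples. All alternatives gave a value above 0.

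The other abundant claudins of epithelia overlapped between the genotypes. cldnb (ENSDARG00000009544), whose promoter is widely used to label the zebrafish lateral line and other epithelia, was at 51.9, 36.9 and 36.7 CPM in tlr2-/- replicates 1, 2 and 3, and at 123, 27.0 and 69.7 CPM in tlr2+/+ replicates 1, 2 and 3. The mutant libraries lay within the wild type range (log2 fold change -0.81, SE 0.476, edgeR unadjusted p = 0.114). Its log2 fold change was -0.09 without tlr2+/+ replicate 1 and -1.21 without tlr2+/+ replicate 2 (edgeR unadjusted p = 0.0107, adjusted p = 1). The main cldni entry had 34.2, 35.0 and 35.4 CPM in tlr2-/- libraries, the tightest claudin of that genotype, against 77.3, 20.8 and 48.0 CPM in tlr2+/+ libraries (log2 fold change -0.48, SE 0.446, edgeR unadjusted p = 0.299). Its sign turned to 0.14 without tlr2+/+ replicate 1.

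cldn7b (ENSDARG00000014047) is a relative of mammalian claudin 7, a claudin of the lateral membrane of epithelia that binds EpCAM. It was at 20.5, 12.3 and 13.0 CPM in tlr2-/- libraries, against 32, 16.6 and 25.0 CPM in tlr2+/+ libraries. Only tlr2-/- replicate 1 lay above a wild type library (log2 fold change -0.69, SE 0.450, edgeR unadjusted p = 0.152). cldne (ENSDARG00000043128), a gene of the outer skin layer of the embryo, had 15.3, 9.91 and 13.8 CPM in tlr2-/- and 8.94, 13.8 and 16 CPM in tlr2+/+ libraries. The genotypes fully overlapped, and 2 standard errors around the log2 fold change of 0.01 spanned -1.01 to 1.02 (edgeR unadjusted p = 0.987).

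Reads of cldn7a were split between 2 entries in fractions that add up to whole reads, so their separate values are uncertain. The entry ENSDARG00000111721 had 39, 24 and 49 reads in tlr2-/- libraries, against 178, 111 and 80 reads in tlr2+/+ libraries. In TPM these did not overlap, at 3.99, 2.04 and 5.83 in tlr2-/- and 13.0, 11.7 and 6.22 in tlr2+/+, while in CPM they did (log2 fold change -1.17, SE 1.27, edgeR unadjusted p = 0.377). The entry ENSDARG00000036376 had 134, 19 and 87 reads in tlr2-/- and 163, 175 and 680 reads in tlr2+/+ libraries. Its CPM overlapped only through tlr2-/- replicate 1 and tlr2+/+ replicate 1 (log2 fold change -1.17, SE 0.842, edgeR unadjusted p = 0.190). Summed, cldn7a had 173, 43 and 136 reads in tlr2-/- and 341, 286 and 760 reads in tlr2+/+ libraries, which in CPM was 7.95, 2.27 and 8.29 in tlr2-/- and 11.4, 15.8 and 14.4 in tlr2+/+ libraries. The sums did not overlap, in CPM or in TPM, and their log2 fold change was -1.16 with an edgeR unadjusted p of 0.0836 (adjusted p = 0.9997). By single entries, 13.1% of all genes tested did not overlap in CPM. The claudins without overlap given above were counted by entry, so the cldn7a sum is not among them.

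The second cldni entry (ENSDARG00000111133) was read almost only in tlr2+/+ replicate 1, with 0 reads in each tlr2-/- library and 170, 0 and 2 reads in tlr2+/+ replicates 1, 2 and 3. With reads in so few libraries it did not pass the filter on low counts and was not tested. In the main entry the longer transcript also took 698 reads in tlr2+/+ replicate 1 and 174 reads in tlr2-/- replicate 3, but 0 to 31.0 in the other libraries. The fractional reads of both cldni entries come from sharing between transcripts, so their split is uncertain.

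**Figure D3:**
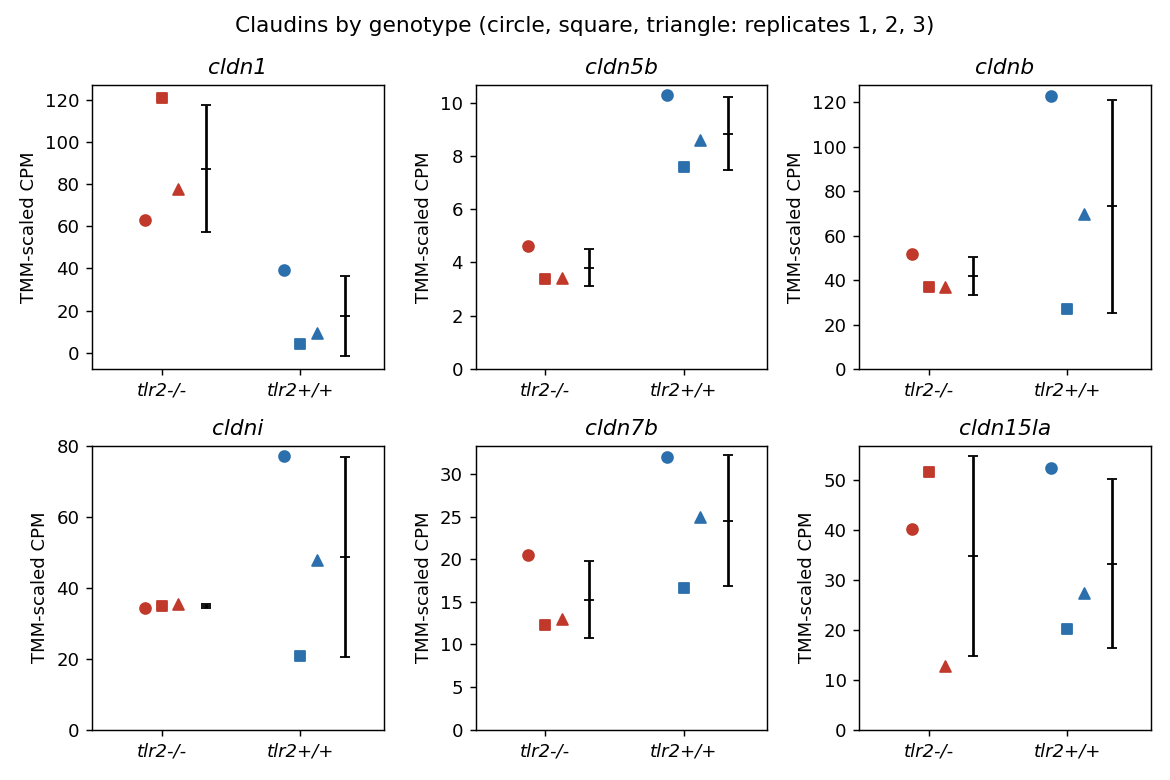
CPM of 6 claudins by library (vertical axes, linear), tlr2-/- in red left of tlr2+/+ in blue, with circle, square and triangle for replicates 1, 2 and 3 and black bars for the mean ± SD of 3 libraries. cldn1 and cldn5b do not overlap between genotypes, in opposite directions, and cldnb, cldni, cldn7b and cldn15la do.

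The claudin of highest TPM differed between the tlr2-/- and tlr2+/+ libraries, though neither cldn1 nor cldnb was called in the main fit. cldn1 ranked first among the claudins in each tlr2-/- library and at places 2, 8 and 4 in tlr2+/+ replicates 1, 2 and 3, while cldnb ranked first in each tlr2+/+ library. The TPM ratio of cldn1 to cldnb, a comparison within each library that was chosen after the values were seen, was 2.43, 6.25 and 4.20 in tlr2-/- and 0.601, 0.274 and 0.284 in tlr2+/+ libraries. cldn1 made up 39.2%, 57.3% and 53.6% of the summed claudin level in tlr2-/- libraries, against 16.7%, 5.77% and 8.84% in tlr2+/+ libraries. Neither measure overlapped between the genotypes, and both contain cldn1. Since both were picked after their values were seen, no test is given. The summed level of all claudin entries did overlap, at 330, 318 and 263 TPM in tlr2-/- and 486, 123 and 419 TPM in tlr2+/+ libraries. Without cldn1 it was 201, 136 and 122 TPM in tlr2-/- and 405, 116 and 382 TPM in tlr2+/+ libraries.

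Skin markers, like the summed claudins, were highest in tlr2+/+ replicates 1 and 3. The 10 entries of a list of skin markers, keratins with epcam and cdh1, summed to 4380, 3490 and 4440 TPM in tlr2-/- and to 9840, 3630 and 14600 TPM in tlr2+/+ libraries, and none was at 0 in a library. All 10, which carry 8 symbols with krt4 and krt5 repeated, had a log2 fold change below 0, against 48.9% of all genes tested. Their median was -0.52, against 0.02 over all genes. With edgeR 2 of the 10 (against 3.73% of all genes) had an unadjusted p under 0.05 and 0 an adjusted one, and in 0 of them did the CPM of the genotypes separate, against 13.1% of all genes. The part of the skin content in the values of cldn1 and the other claudins was not tested. In whole larvae, fewer cells of a type and less RNA per cell cannot be told apart.

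**Figure D4:**
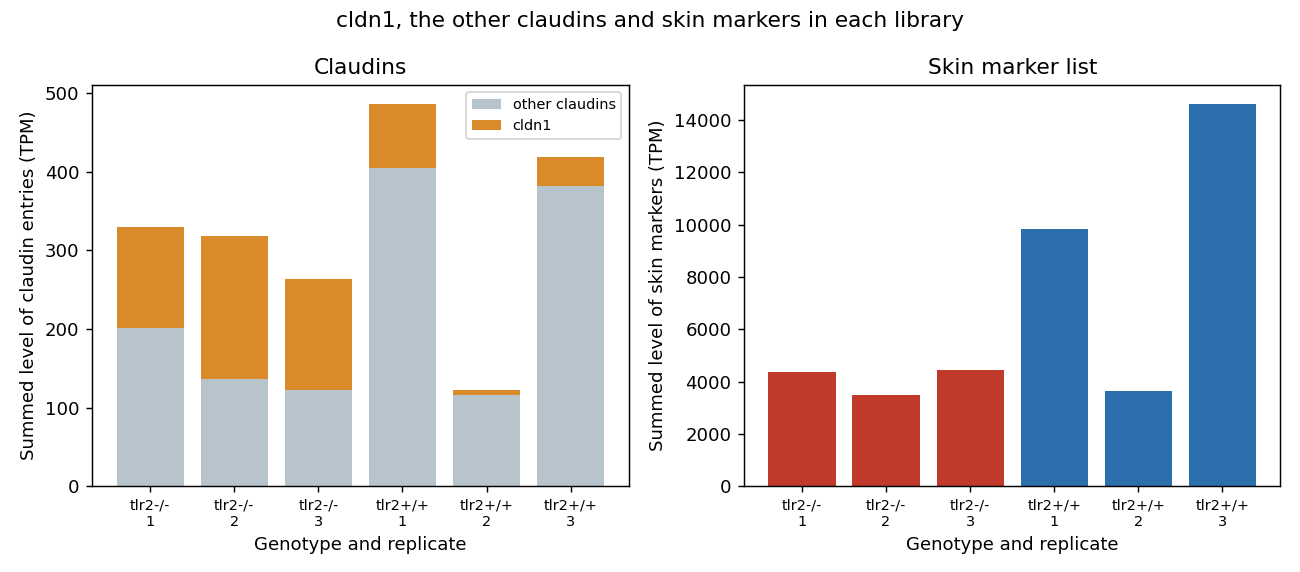
Summed level of the 28 claudin entries in each library, split into cldn1 (orange) and the others (grey), and the summed level of 10 skin marker entries in the same libraries (both vertical axes in TPM from 0), tlr2-/- left of tlr2+/+. cldn1 is 39.2% to 57.3% of the bar in tlr2-/- and 5.77% to 16.7% in tlr2+/+, while the grey part and the skin sum are largest in tlr2+/+ replicates 1 and 3.

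The gut claudins were expressed without a difference that the test could find. cldn15la (ENSDARG00000016081), known from reporter lines as a gene of the intestinal epithelium, had 40.2, 51.6 and 12.7 CPM in tlr2-/- and 52.4, 20.1 and 27.4 CPM in tlr2+/+ libraries. The genotypes overlapped, and 2 standard errors around its log2 fold change of 0.07 spanned -0.98 to 1.11 (edgeR unadjusted p = 0.902). Its sign turned in 4 of the fits that left out a library. The 10 entries of an intestinal marker list summed to 1660, 1450 and 1230 TPM in tlr2-/- and 1980, 983 and 2110 TPM in tlr2+/+ libraries, with apoa4a at 0 in tlr2+/+ replicate 2 and cdx1b at 0 in tlr2+/+ replicate 1.

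cldn15lb (ENSDARG00000100844), a close relative, had 4.96, 6.27 and 3.72 CPM in tlr2-/- and 15.4, 1.61 and 5.14 CPM in tlr2+/+ libraries (log2 fold change -0.56, SE 0.907, edgeR unadjusted p = 0.545). It was 0.69 without tlr2+/+ replicate 1. cldn15a (ENSDARG00000112049), which in zebrafish is needed for a single gut lumen to form, was low, at 5.19, 5.48 and 2.26 CPM in tlr2-/- and 4.03, 1.66 and 5.55 CPM in tlr2+/+ libraries. These fully overlapped (log2 fold change 0.20, SE 1.09, edgeR unadjusted p = 0.858). Its paralogue cldn15b had 9 reads in tlr2-/- replicate 3 and 11 reads in tlr2+/+ replicate 3, and 0 in the other 4 libraries.

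Among relatives of claudins that form ion pores or act in the kidney tubule of mammals, cldn2, cldn10b, cldn10l2 and cldn19 averaged under 4 TPM. cldn2 (ENSDARG00000044387), whose mammalian counterpart forms a pore for cations and water, had 3.63, 0.738 and 1.95 CPM in tlr2-/- and 1.23, 4.71 and 3.40 CPM in tlr2+/+ libraries (log2 fold change -0.56, SE 1.46, edgeR unadjusted p = 0.708). cldn10b (ENSDARG00000104528), of a group that forms ion pores in mammals, had 8.41, 6.06 and 9.51 CPM in tlr2-/- and 9.27, 4.27 and 2.23 CPM in tlr2+/+ libraries. The first wild type library lay among the mutant ones and the other two below them (log2 fold change 0.61, SE 0.788, edgeR unadjusted p = 0.456), and without that first library the value was 1.37. Its neighbour cldn10l2 (ENSDARG00000105042) was read in 3 libraries, with 27, 0 and 0 reads in tlr2-/- and 113, 0 and 11 reads in tlr2+/+, and was not tested.

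cldn19 (ENSDARG00000044569), which in mammals acts with claudin 16 in the reabsorption of magnesium in the kidney, had 4.73, 4.58 and 8.05 CPM in tlr2-/- and 6.64, 0 and 1.91 CPM in tlr2+/+ libraries. The count of 0 in tlr2+/+ replicate 2 allows up to 0.166 CPM (log2 fold change 1.02, SE 1.42, edgeR unadjusted p = 0.487). The log2 fold change was 2.73 without tlr2+/+ replicate 1 and 0.44 without tlr2+/+ replicate 2. A list of 8 pronephros entries summed to 20.6, 14.7 and 17.0 TPM in tlr2-/- and 21.5, 15.1 and 38.1 TPM in tlr2+/+ libraries, and a list of ionocyte markers to 164, 96.0 and 101 TPM in tlr2-/- and 195, 146 and 151 TPM in tlr2+/+ libraries. In neither list did an entry have an unadjusted p under 0.05 with edgeR. Of the pronephros list slc12a1 was at 0 in tlr2-/- replicates 2 and 3. Of the ionocyte list slc9a3.2 and an entry of trpv6 (ENSDARG00000110671) were at 0 in tlr2-/- replicate 2, slc9a3.2, slc12a10.2 and another entry of trpv6 (ENSDARG00000014496) in tlr2+/+ replicates 1 and 2, and rhcgb in tlr2+/+ replicate 2.

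cldn5b was the other tested entry whose libraries did not overlap. It (ENSDARG00000014059) is a relative of mammalian claudin 5, the main claudin of brain vessel walls. It had 4.60, 3.37 and 3.42 CPM in tlr2-/- replicates 1, 2 and 3, and 10.3, 7.59 and 8.59 CPM in tlr2+/+ replicates 1, 2 and 3. Each mutant library lay below each wild type library, in TPM too. The means were 3.79 ± 0.694 CPM in tlr2-/- and 8.84 ± 1.39 CPM in tlr2+/+ (SD, n = 3 each), with a log2 fold change of -1.22 (SE 0.751, edgeR unadjusted p = 0.129, exact permutation p = 0.1). In limma-trend on log2(TPM + 1) the difference was -1.72 with an unadjusted p of 0.00619 and an adjusted p of 0.349. The median of all genes in that fit was -0.29, and 1453 of 15571 genes had an unadjusted p under 0.05.

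The transcripts of cldn5b split unevenly. Its short transcript of 661 nt took 8.57, 0 and 0 reads in tlr2-/- and 38.4, 60.4 and 60.3 reads in tlr2+/+ libraries. The long transcript of 1647 nt took 91.4, 64.0 and 56.0 reads in tlr2-/- and 272, 76.6 and 395 reads in tlr2+/+ libraries. In TPM the long transcript alone overlapped, at 2.87 in tlr2-/- replicate 1 and 2.72 in tlr2+/+ replicate 2. The short one was at 5.98 TPM in tlr2+/+ replicate 2. The fractional reads come from sharing between transcripts, so this split and the TPM of the gene that rests on it are uncertain. The 4 endothelial marker entries summed to 4.60, 2.51 and 3.28 TPM in tlr2-/- and to 5.07, 4.93 and 9.46 TPM in tlr2+/+ libraries. These sums did not overlap, but the share of all genes without overlap in TPM was not worked out. The largest part was fli1a, at a mean of 2.58 TPM. The log2 fold change was above 0 in 1 entry, cdh5 (0.80), and below 0 in 3, against 48.9% of all genes tested. With edgeR 0 of the 4 had an unadjusted p under 0.05. In CPM each of the 4 overlapped between the genotypes. In tlr2+/+ replicate 2, pecam1 was at 0, while fli1a was at 15.8 CPM, its highest of the 6 libraries. Their part in the values of cldn5b was not tested. cldn5a (ENSDARG00000043716), which in zebrafish acts in the brain ventricle barrier, was near the limit of detection, with 31, 0 and 0 reads in tlr2-/- and 0, 0 and 12 reads in tlr2+/+ libraries.

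Relatives of claudin 11, which in mammals forms the junctions of central myelin, were both present. cldn11a (ENSDARG00000020031) had 5.74, 9.96 and 5.18 CPM in tlr2-/- and 14.7, 2.38 and 5.01 CPM in tlr2+/+ libraries, a full overlap (log2 fold change -0.08, SE 0.808, edgeR unadjusted p = 0.923). cldn11b averaged 1.57 TPM, and its log2 fold change was 0.53. cldnj (ENSDARG00000058880), a claudin needed in zebrafish for normal otoliths of the inner ear, was detected in 1 library, with 46 reads in tlr2+/+ replicate 1.

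The remaining 8 entries had means of 3.72 TPM or less. cldnh averaged 3.72 TPM, cldnc 3.68 TPM, cldn23a 2.57 TPM, cldna 1.32 TPM, cldn12 1.12 TPM and cldn17 0.369 TPM, and their log2 fold changes spanned -1.18 in cldna to 1.67 in cldn17. Both ends rest on single libraries, since the mutant reads of cldna were all in tlr2-/- replicate 1 (56 reads) and the wild type reads of cldn17 all in tlr2+/+ replicate 3 (56 reads). Without those libraries the fitted values were -8.74 for cldna and 7.61 for cldn17, which depend on the prior count. The smallest edgeR unadjusted p among these 6 was 0.517. In tlr2+/+ replicate 2, cldnc and cldn12 had 1 read each, and cldn23a, cldna and cldn17 had 0. cldnf, at 0.327 TPM, and cldng, at 0.219 TPM, were not tested.

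Several claudins lie side by side in the genome. In RefSeq annotation of the assembly GRCz12tu, which was used for the order of genes alone and matched all 27 symbols, cldnj, cldne, cldnf and cldna follow each other with 0 coding genes between them, and so do cldnh, cldnc and cldnb. Neighbours differed in level. cldne averaged 8.49 TPM beside 0.327 TPM of cldnf, and cldnb 67.9 TPM beside 3.68 TPM of cldnc.

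Transcripts of tight junction partners had values on both sides of no difference. A list of 51 symbols of tight junction partners (occludins, the ZO scaffolds, junctional adhesion molecules, polarity complexes and angulins) had 41 tested entries, of which 0 passed at an adjusted p under 0.05 with edgeR or DESeq2. Their log2 fold changes were above 0 in 20 and below 0 in 21, while 48.9% of all genes tested were below 0. The median of the partners was -0.05, against 0.02 over all genes. At an unadjusted p under 0.05, 1 of the 41 (2.44%) was found, against 3.73% of all genes. In 4 (9.76%) the genotypes did not overlap in CPM, against 13.1% of all genes, and of these 2 had the mutant libraries above and 2 below. Among 21 tested entries of adherens junctions and desmosomes, 0 passed at an adjusted p under 0.05 and 1 (4.76%, against 3.73% of all genes) had an unadjusted p under 0.05 with edgeR, with a median log2 fold change of -0.34, against 0.02 over all genes.

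jam2a, a junctional adhesion molecule that in zebrafish acts in the fusion of muscle precursors, was at 17.1, 30.5 and 19.1 CPM in tlr2-/- and 12.9, 7.09 and 5.97 CPM in tlr2+/+ libraries. The genotypes did not overlap (log2 fold change 1.36, SE 0.513, edgeR unadjusted p = 0.0200, adjusted p = 0.9998). tjp1b, a ZO-1 scaffold, was at 87.3, 90.0 and 82.4 CPM in tlr2-/- and 60.5, 39.1 and 70.2 CPM in tlr2+/+ libraries, also without overlap (log2 fold change 0.61, SE 0.340, edgeR unadjusted p = 0.0951). prkci, the atypical protein kinase C of the polarity complex, was at 11.8, 9.17 and 10.5 CPM in tlr2-/- and 16.5, 16.6 and 21.4 CPM in tlr2+/+ libraries, with all mutant libraries below (log2 fold change -0.79, SE 0.467, edgeR unadjusted p = 0.113). The remaining partner without overlap, the scaffold magi3b, had 1.56, 1.79 and 0.976 CPM in tlr2-/- and 2.40, 3.49 and 2.06 CPM in tlr2+/+ libraries and was named after its values were seen (log2 fold change -0.87, SE 1.61, edgeR unadjusted p = 0.597).

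Among the other partners, ildr2, an angulin of junctions where 3 cells meet, had a log2 fold change of -0.82 (SE 0.540, edgeR unadjusted p = 0.155). By level the ZO-2 scaffold tjp2b led at a mean of 59.9 TPM, followed by the scaffold magi1b at 43.8 TPM, jam2a at 29.9 TPM and the angulin ildr1a at 19.9 TPM. The log2 fold changes were 0.50 for tjp2b, 0.11 for magi1b and 0.37 for ildr1a, with edgeR unadjusted p-values of 0.211 to 0.726.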

How the data were processed

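RNA of whole larvae was sequenced after poly(A) selection with a directional kit (NEBNext Ultra II), with reads of 150 nt. The authors made estimated counts per transcript with Salmon v1.2.1 against the zebrafish build GRCz11, and these can be fractions where transcripts share reads. TPM values were deposited from the same run. The mean signal in the authors' deposited gene table averages counts over the 6 libraries after DESeq2 v1.24.0 had normalized them. Its log2 fold changes and s-values hold the authors' own comparison and were not used. The annotation release, the options of Salmon and its use of strand were not given in the sources used here, so reads of a gene and an antisense partner cannot be told apart.

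The transcript tables carry no gene names. Each gene was joined to the neighbouring transcripts, up to 40, whose normalized counts give its deposited mean within a relative difference of 1e-12. This joined 21079 of 23956 genes, which hold 99.909% or more of each library's reads. Another 2873 genes had reads in 1 library, among them cldnj, whose count was solved from the mean, and 4 were ambiguous. Estimated counts and TPM were summed per gene, and the counts were rounded.

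The main test was the robust quasi-likelihood test of edgeR 4.0.16, after its default filter and TMM scaling, between genotypes with no other factor. Calls were made at a Benjamini-Hochberg adjusted p under 0.05 over all 16776 genes tested. CPM values use the TMM factors, which were 1.59 in tlr2+/+ replicate 3 and 0.789 to 0.983 in the other libraries. The high factor lowers every CPM of tlr2+/+ replicate 3, which TPM does not share. The standard error is the size of the log2 fold change divided by the square root of F. The fit was run on simulated data first, and the share of changes it recovered is not given here. The common biological coefficient of variation of the libraries was 1.05. With that spread, an adjusted p above 0.05 does not show that a level was equal between the genotypes. The members and gene lists were chosen with earlier results of these data known. Named were the 10 claudins of highest mean TPM, the 8 of smallest p, those with a textbook role and symbols with several entries, and of the partners the 4 of smallest p and the 4 of highest TPM. The alternatives tried were RLE scaling, a mean CPM of at least 1 as the filter, no filter at all, summed entries of a symbol, offsets for transcript length, the replicate number as a block, each library left out, DESeq2 1.42.0 with Wald tests and limma-trend (limma 3.58.1) on log2(TPM + 1) of genes with a mean TPM of at least 0.5. Scripts ran in R 4.3.3 and in Python 3.11.15 with pandas 2.3.3, numpy 2.4.6 and, for plots, matplotlib 3.10.9.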

Additional observations from a re-analysis of the deposited data

How the results depend on the processing

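The number of genes called was 1 and became 3 with no filter, 0 at a mean CPM of at least 1, 39 with DESeq2, 0 with entries of a symbol summed, 7 with limma-trend on TPM and 0 to 5 when a library was left out. Claudins at an unadjusted p under 0.05 numbered 1 of 22, against 2 of 28 with no filter and 3 of 23 with limma-trend. Of all genes tested, 625 of 16776 were under it in the main fit, 897 of 21079 with no filter and 1453 of 15571 with limma-trend. When a library was left out 1 to 3 claudins were found. The 3 were of 24 without tlr2+/+ replicate 2, where 849 of 18871 genes were under 0.05. The claudin median of -0.39 ranged from -0.51 to 0.39 when a library was left out. Tight junction partners at an unadjusted p under 0.05 numbered 1 of 41, against 2 of 41 with length offsets, where 736 of 16776 genes were under it. With a library left out they numbered 0 to 7. The 7 were of 41 without tlr2+/+ replicate 3, a fit in which 2923 of 17474 genes were under 0.05. The 10 most abundant claudins shared 9 or 10 entries in every alternative order. Against tlr2+/+ replicate 3 alone, an alternative chosen after seeing the data, 758 genes, 1 claudin and 3 partners were called at an adjusted p under 0.05, and 2 claudins and 4 partners had an unadjusted p under 0.05. Tested in that fit were 20344 genes, 26 claudins and 44 partners. With 1 wild type library it holds no wild type spread. Its counts therefore cannot tell whether claudins or partners stood apart from all genes. limma-trend moved the median of all genes to -0.29 and that of the claudins to -0.54. The sign turned in limma-trend for cldn15la (-0.47), cldne (-0.38) and cldn15a (-0.15). Against replicate 3 alone it turned for cldne (-0.14), cldn7a ENSDARG00000111721 (0.58), cldn15lb (0.13), cldn11a (0.65) and cldn15a (-0.19). With a library left out it turned for cldn15la (-0.33 to 0.66), cldni (-0.85 to 0.14), cldne (-0.13 to 0.21), cldn15lb (-1.04 to 0.69), cldn11a (-0.50 to 1.03) and cldn15a (-0.16 to 0.61), and 9 of 15 named claudins kept theirs. The replicate numbers gave no sign of pairing the samples, with correlations of their deviations of 0.002, 0.044 and 0.057. The replicate block called 64 genes, with cldn1 at a log2 fold change of 2.92 and an edgeR adjusted p of 9.27e-06, moved the median of all genes to 0.33 and turned cldn15la to -0.06 and cldn11a to 0.22. The cause of these changes was not tested. A count of 0 allows up to 0.183 CPM in a library, and lower levels were not detectable at this depth.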

Other observations

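The deposited gene table also holds 8 claudin entries under clone names that newer annotation calls claudins, and these were not among the 29 entries above. cldn29 (listed as zgc:112437) averaged 11.5 TPM, with 285, 173 and 172 reads in tlr2-/- and 137, 298 and 400 reads in tlr2+/+ libraries (log2 fold change 0.19, edgeR unadjusted p = 0.759). cldn8.2 (listed as zgc:110333) averaged 8.76 TPM, with 330, 364 and 274 reads in tlr2-/- and 326, 221 and 340 reads in tlr2+/+ libraries (log2 fold change 0.79, edgeR unadjusted p = 0.139). In CPM it was at 15.2, 19.2 and 16.7 in tlr2-/- and 10.9, 12.2 and 6.42 in tlr2+/+ libraries, without overlap, but in TPM the genotypes overlapped. Both would stand among the 10 most abundant claudins. cldn30 (listed as zgc:136892) averaged 1.37 TPM and had 27, 0 and 2 reads in tlr2-/- and 211, 112 and 42 reads in tlr2+/+ libraries (log2 fold change -3.34, edgeR unadjusted p = 0.107). In TPM these did not overlap, but in CPM they did, with tlr2-/- replicate 1 above the 0.793 CPM of tlr2+/+ replicate 3. cldn33b averaged 1.36 TPM, cldn23l 0.772 TPM and cldn10d 0.232 TPM, and the entries of cldn10e and cldn26 had a mean of 0. None of the 5 tested entries had an adjusted p under 0.05 with edgeR, and 0 had an unadjusted p under 0.05.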
